A study of Mus musculus with 18 samples.

Results

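Th17 cells that lack the glucose transporter GLUT3 and were given acetate were set against wild-type Th17 cells that were given none, by the messenger RNA of both. There were 6 libraries in this comparison, of 18 in the series, 3 with GLUT3 loss and acetate and 3 untreated wild type, and they were chosen by their labels alone. In the GLUT3KO cells a floxed Slc2a3 gene was deleted by Cre under the Cd4 promoter (Slc2a3-fl/fl Cd4-cre), which acts in developing T cells, and WT cells are labelled wild type. In the GLUT3KO and WT groups the genetic background is labelled C57BL/6, except for replicate 3 of GLUT3KO with acetate, which is labelled C57BL/7. All cells were CD4+ T cells that had been activated through CD3 and CD28 and polarized as naive cells for 48 hours in Th17 cytokines, kept for another 24 hours without or with acetate, and restimulated for 5 hours with PMA and ionomycin while secretion was blocked. The acetate dose is 20 mM in the sample protocols and 10 mM in the design text, a disagreement that could not be settled. Untreated GLUT3KO and WT with acetate, 3 libraries each, gave the starting point and a second point of comparison.

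Th17 cells are helper T cells that make interleukin-17 and recruit neutrophils to barrier tissues. GLUT3 brings in glucose, and part of its carbon leaves the mitochondrion as citrate, from which ATP citrate lyase makes the acetyl-CoA used for lipid synthesis and for the acetylation of histones. Acetate enters the same pool through acetyl-CoA synthetases, so that acetate offers a source of acetyl-CoA that does not need glucose.

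Levels are in TPM, the share of a library's transcripts after scaling for gene length, given library by library in the order of replicates 1, 2 and 3. Changes are differences of log2(TPM + 1), a scale that understates changes of low genes. Their standard errors are for 3 against 3 libraries, but the spread comes from the fit of all 18 libraries. It is thus shared with groups not compared here and does not describe the 6 libraries alone. Among those groups is ACLYKO, with Acly deleted (Acly-fl/fl Cd4-cre), without and with acetate, 3 libraries each. The ACLYKO backgrounds are labelled C57BL/6 and C57BL/8 to C57BL/12. A gene was called at a limma adjusted p under 0.05. No label ties the 3 libraries to different mice, and the p-values therefore measure a spread between libraries that may be technical. RNA of whole cultures cannot tell fewer cells of a type from less RNA per cell. Depth was 18.7 to 30.1 M reads per library, recovered from the TPM values. The T cell markers Cd3e and Cd4 were at 135, 158 and 148 TPM and 166, 181 and 177 TPM in GLUT3KO with acetate. In WT they were at 152, 134 and 135 TPM and 265, 209.7 and 216 TPM. The Th17 markers Il17a, Il17f, Il23r and Ccr6 all passed the filter of at least 1 TPM in at least 3 of the 18 libraries. Of the GLUT3KO and WT libraries the untreated ones spread more than the treated ones. Along the leading axis of within-group variation GLUT3KO with acetate ran from -1.99 to 2.22. GLUT3KO replicates 1, 2 and 3 scored 31.9, -36.0 and 4.10, and WT replicate 1 scored 35.6. Untreated ACLYKO, which enters the shared spread, ran widest, at 90.2, -36.6 and -53.5. Replicate 3 of GLUT3KO is among the 5 libraries set apart below and replicate 2 is not, so that set does not follow this axis. Earlier results of these data had set 5 libraries apart, of which WT replicate 1 and GLUT3KO replicates 1 and 3 are among the groups used here, and without the 5 the number of genes that differed between GLUT3KO with acetate and WT was 8867 in place of 4218. Untreated GLUT3KO is then 1 library, replicate 2, whose spread is taken from the other groups.

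Slc2a3 itself (chr6:122727809-122802363, minus strand, GRCm38.p6) was read first. It stood at 8.62, 9.69 and 13.6 TPM in GLUT3KO with acetate, at 4.0, 6.31 and 8.20 TPM in untreated GLUT3KO, at 30.9, 32.6 and 29.6 TPM in WT with acetate and at 14.4, 19.8 and 19 TPM in WT. Every GLUT3KO library lay below every untreated WT library, and GLUT3KO with acetate lay above untreated GLUT3KO. The difference between GLUT3KO with acetate and WT was -0.69 ± 0.28 (limma adjusted p = 0.0766), which missed the threshold, although it passed in 7 alternatives with adjusted p-values of 0.000693 to 0.0367. Against WT with acetate Slc2a3 was lower by a called difference (-1.48 ± 0.28, limma adjusted p = 0.000884). The acetate change within GLUT3KO (0.72 ± 0.28) was not called (limma adjusted p = 0.105, and 0.0235 with a replicate block). The levels are per gene, and which exons Cre removes is not stated, so reads from exons that remain may count. The pseudogene Gm4482 also overlaps Slc2a3 on the same strand.

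Of 14229 genes tested, 4218 (29.6%) differed between GLUT3KO with acetate and WT. There were 2891 higher genes (20.3%) and 1327 lower genes (9.33%), and 1512 and 279 of them by at least 1 on the log2 scale. Untreated GLUT3KO differed from WT in 4753 genes (33.4%), 3548 higher (24.9%) and 1205 lower (8.47%), and acetate changed 1813 genes within GLUT3KO (12.7%), 691 upward (4.86%) and 1122 downward (7.89%). Against WT with acetate 4329 genes differed (30.4%), 2977 higher (20.9%) and 1352 lower (9.5%), and acetate changed 925 genes within WT (6.5%), 601 upward (4.22%) and 324 downward (2.28%). The libraries of GLUT3KO with acetate and of WT did not overlap in 7792 genes (54.8%), so a lack of overlap alone is common here. The number that differed from WT was of the same order with acetate and without it, although the 2 comparisons share the WT libraries and no test was made between the counts. The share of higher genes rests on the scaling. It was 68.5% on TPM, 59.6% after median-ratio scaling, 49.1% after quantile normalization and 46.2% after a correction for GC content and length. The median of all genes moved with it, at 0.058 on TPM and at -0.02, -0.11 and -0.112 in those 3 alternatives, so the direction of a small difference depends on the scaling.

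Each of the 4753 genes that differed between untreated GLUT3KO and WT was then placed by where acetate left it. A gene was called returned when acetate changed it back and the remaining difference from WT was not called and had a 95% interval within 1 of 0 on the log2 scale. It was short when the difference from WT was still called on the same side, past when it was called on the other side, and further when acetate moved it away from WT. Acetate returned 464 genes (9.76%), left 225 short (4.73%), took 31 past WT (0.652%) and moved 307 further away (6.46%). Another 44 were changed back with an interval too wide to say (0.926%). The remaining 3682 (77.5%) had no called acetate change, of which 2408 still differed from WT on the same side and 1274 no longer differed by a called amount. With a replicate block 787 genes counted as returned and 340 as short. Single libraries moved these counts. With 1 library left out at a time they ran from 219 to 667 returned, 102 to 303 short, 12 to 37 past and 189 to 282 further. The lowest counts came without GLUT3KO replicate 3 for returned and further genes, without replicate 3 of GLUT3KO with acetate for short genes and without WT replicate 3 for genes past WT.

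On the TPM scale most of these genes had been higher in untreated GLUT3KO than in WT, 393 of the returned genes against 71 that were lower, and 201 of the short genes against 24. That split depended on the scaling: the share of higher genes among returned ones was 84.7% on TPM, 52.3% after median-ratio scaling, 64.9% after quantile normalization and 53.2% after the correction for GC content and length. Among genes moved further it was 90.6%, 85.4%, 75.9% and 74.3% in the same order, among short genes 89.3%, 65.0%, 66.7% and 54.9%, and among genes past WT 67.7%, 45.2%, 57.4% and 49.2%. Their median distance from WT was 0.16 with acetate and 0.82 without it for returned genes, and 0.80 with acetate and 1.6 without it for short genes. Those moved further lay at a median distance of 1.89 with acetate and 0.91 without it, 278 of them above WT and 29 below. Genes taken past WT had a median distance of 0.61 with acetate and of 0.63, on the other side, without it. Because the 3 comparisons share libraries, these distances describe the groups of genes and test nothing. Counts by position against WT with acetate, or of the acetate change in WT, reuse libraries that set the positions. They are a description too.

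**Figure D1:**
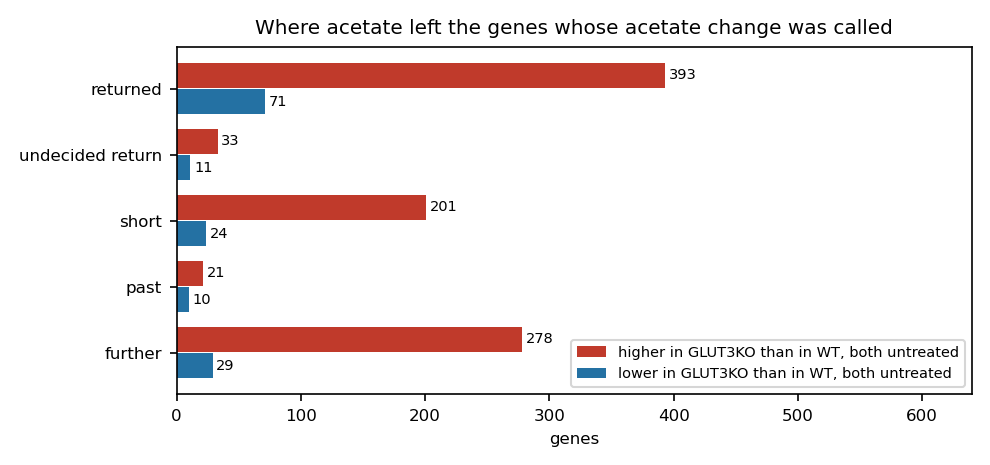
Number of genes (horizontal axis) in each position that acetate left them in, for genes whose acetate change within GLUT3KO was called, split by whether untreated GLUT3KO was above (red) or below (blue) untreated WT. On this TPM scale higher genes outnumber lower ones in every position, with 393 against 71 among returned genes. Among genes past WT, 21 against 10 here, the split turns after median-ratio scaling (45.2% higher) and after correction for GC content and length (49.2% higher).

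**Figure D2:**
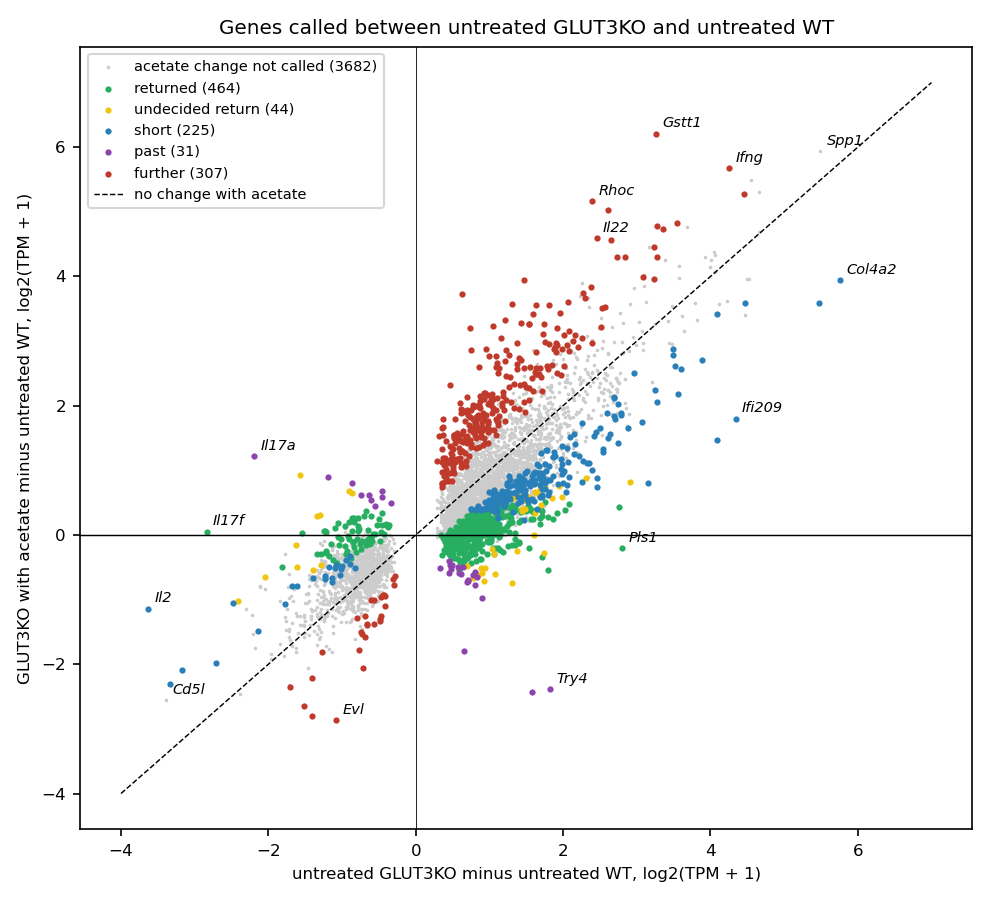
Each point is one of the 4753 genes called between untreated GLUT3KO and untreated WT, with its difference from WT without acetate (horizontal) and with acetate (vertical), both in log2(TPM + 1). Points on the dashed line did not move with acetate, those near the horizontal line at 0 lie at the WT level, and both axes share the WT libraries. Il17f lies at the WT level, Il2 below it, Il17a above it, and Gstt1, Ifng and Rhoc lie above the dashed line.

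The 4 cytokine genes that stand for the different positions were Il17f, Il2, Il17a and Ifng. The 250 bases before the RefSeq start of each (GRCm38.p6) are shown, because these genes ended in 4 different positions relative to WT under 1 treatment. They lie at chr1:20784271-20784520 (minus strand), chr3:37125955-37126204 (minus strand), chr1:20730655-20730904 (plus strand) and chr10:118440796-118441045 (plus strand). Capitals mark AGGTCA or its reverse complement TGACCT, a half-site bound by many nuclear receptors, and the TATA box TATAAA on the strand of the gene.
Il17f: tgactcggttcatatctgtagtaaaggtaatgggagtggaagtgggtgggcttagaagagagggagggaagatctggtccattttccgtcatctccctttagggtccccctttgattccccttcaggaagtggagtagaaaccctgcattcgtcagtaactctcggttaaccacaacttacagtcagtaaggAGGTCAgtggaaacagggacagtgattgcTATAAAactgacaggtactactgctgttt
Il2: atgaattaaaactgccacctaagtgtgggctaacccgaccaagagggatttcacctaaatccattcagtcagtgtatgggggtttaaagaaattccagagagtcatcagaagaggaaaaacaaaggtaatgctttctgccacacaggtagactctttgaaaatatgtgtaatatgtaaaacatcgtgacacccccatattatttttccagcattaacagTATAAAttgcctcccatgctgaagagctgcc
Il17a: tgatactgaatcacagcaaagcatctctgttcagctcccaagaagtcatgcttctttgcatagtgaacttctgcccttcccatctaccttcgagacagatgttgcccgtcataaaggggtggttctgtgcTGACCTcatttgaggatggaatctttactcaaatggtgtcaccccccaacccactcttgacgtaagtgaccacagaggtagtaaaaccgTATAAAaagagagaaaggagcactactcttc
Ifng: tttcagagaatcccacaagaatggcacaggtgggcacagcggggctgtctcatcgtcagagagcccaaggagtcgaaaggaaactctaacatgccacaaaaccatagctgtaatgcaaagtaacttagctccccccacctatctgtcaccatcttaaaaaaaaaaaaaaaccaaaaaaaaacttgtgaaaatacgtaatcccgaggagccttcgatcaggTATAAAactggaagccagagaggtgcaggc
All 4 windows hold TATAAA, 29 bases before the start in Il17f, 31 in Il2 and Il17a, and 30 in Ifng. Of the 32851 windows of this length 12.4% hold it, counted on either strand and at any distance from the start. The half-site was found in Il17f, 58 bases before the start, and in Il17a, 120 bases before it, and these letters are not in the windows of Il2 and Ifng. It occurs in 14% of all windows on either strand. Of the other motifs searched on both strands, the core bound by NFAT factors (GGAAA, in 55.6% of all windows) was found 2 times in Il17f, 2 times in Il2, 1 time in Ifng and 0 times in Il17a. The AP-1 site (TGANTCA, in 6.75%) was found 1 time in Il17a and in none of the other 3, and the E-box (CACGTG, in 6.02%) in none of the 4. These matches are letters in a sequence, and nothing here measures binding.

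Il17f, one of the hallmark cytokine genes of Th17 cells, was returned. It stood at 846, 683 and 836 TPM in GLUT3KO with acetate, at 106, 104 and 105 TPM in untreated GLUT3KO, at 1814, 1467 and 1822 TPM in WT with acetate and at 867, 669.9 and 749.8 TPM in WT. The libraries of GLUT3KO with acetate and of WT overlapped, and those of untreated GLUT3KO lay far below both. The difference from WT was 0.05 ± 0.22 with a 95% interval of -0.43 to 0.53, and the acetate change was 2.89 ± 0.22 (limma adjusted p = 2.49e-06). Against WT with acetate the same libraries were lower by a called difference (-1.11 ± 0.22, limma adjusted p = 0.00147). Il17f kept its place in all 24 alternatives.

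Csf2, which encodes the growth factor GM-CSF, was returned too. Its level was 350.5, 320.1 and 369 TPM in GLUT3KO with acetate, 157, 87.2 and 110.0 TPM in untreated GLUT3KO and 424, 334 and 270.5 TPM in WT. The groups with acetate and untreated WT overlapped. The difference from WT was 0.04 ± 0.28 with a 95% interval of -0.56 to 0.63. An unnamed gene model overlaps Csf2 on the other strand, and which strand was counted is not stated.

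Il17a, the gene of interleukin-17A, ended past the WT level. It stood at 1456, 1393 and 1616 TPM in GLUT3KO with acetate, at 91, 192 and 152 TPM in untreated GLUT3KO, at 2111, 1458 and 1807 TPM in WT with acetate and at 613, 599 and 703 TPM in WT. All 3 libraries of GLUT3KO with acetate were above all 3 WT libraries and overlapped those of WT with acetate. Its difference from WT came to 1.22 ± 0.39 (limma adjusted p = 0.0278), and the acetate change 3.41 ± 0.39 (limma adjusted p = 6.75e-05). The call against WT was close to the threshold: it was lost on omitting any 1 of the 6 libraries (limma adjusted p of 0.0505 to 0.0806) and with voom on recovered reads (0.0555). Against WT with acetate the difference was -0.25 ± 0.39 (limma adjusted p = 0.676, 95% interval -1.09 to 0.58).

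Il2, which encodes the main T cell growth factor, was left short. It was at 2444, 2436 and 2348 TPM in GLUT3KO with acetate, at 425, 534 and 342 TPM in untreated GLUT3KO, at 12627, 13570.0 and 11619 TPM in WT with acetate and at 4017, 6356 and 5861 TPM in WT. The groups were separate and ordered, with the treated knockout between the untreated knockout and WT. Acetate changed it by 2.49 ± 0.32 within GLUT3KO (limma adjusted p = 0.000161), and -1.14 ± 0.32 remained to WT (limma adjusted p = 0.0131). That last call was lost after quantile normalization (0.0661) and without WT replicate 2 (0.0578).

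Ifng, whose product interferon-γ is the hallmark of Th1 cells, was moved further from WT. Its level was 1515, 2546 and 2956 TPM in GLUT3KO with acetate, 554, 1138 and 938 TPM in untreated GLUT3KO, 176, 137 and 113 TPM in WT with acetate and 34.2, 59.5 and 38.9 TPM in WT. None of these 4 groups overlapped. The difference from WT was 5.68 ± 0.37 (limma adjusted p = 3.23e-08) with acetate and 4.26 ± 0.37 (limma adjusted p = 6.36e-07) without it. The acetate change of 1.42 ± 0.37 (limma adjusted p = 0.0197) was lost without replicate 2 or 3 of GLUT3KO with acetate (0.0783 and 0.0909), without GLUT3KO replicate 1 (0.102) and without the 5 libraries apart (0.0908, against a single untreated GLUT3KO library), while the call against WT held.

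Il21 and Il22, cytokine genes of Th17 and follicular helper cells, were also moved further from untreated WT by acetate. Il21 was at 5074, 5361 and 4511 TPM in GLUT3KO with acetate and at 1705, 993 and 815 TPM in WT (2.16 ± 0.21, limma adjusted p = 1.84e-06). Il22 was at 34.9, 57 and 52.2 TPM in GLUT3KO with acetate and at 0.365, 1.06 and 1.82 TPM in WT (4.59 ± 0.35, limma adjusted p = 1.46e-07). In neither gene did the groups overlap, and untreated GLUT3KO lay between them at 2608, 2294 and 2741 TPM of Il21 and 5.97, 17.4 and 9.24 TPM of Il22. Acetate raised them within GLUT3KO by 0.97 and 2.13, and within WT by 1.03 and 2.21. An unnamed gene model overlaps Il21 on the other strand.

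Il10, an anti-inflammatory cytokine gene, was called against untreated WT in GLUT3KO with acetate and not in untreated GLUT3KO. It was at 266, 307 and 349 TPM in GLUT3KO with acetate, at 16.8, 38.4 and 31.5 TPM in untreated GLUT3KO, at 442, 345 and 342 TPM in WT with acetate and at 41, 42.1 and 39 TPM in WT. Both acetate groups stood above both untreated groups, and they overlapped each other. The difference between GLUT3KO with acetate and WT was 2.88 ± 0.25 (limma adjusted p = 5.93e-07), against -0.56 ± 0.25 for untreated GLUT3KO (limma adjusted p = 0.103). In 4 alternatives the untreated knockout was called as lower than WT (limma adjusted p of 0.0216 to 0.0272). Tnf, the gene of tumour necrosis factor, was at 681, 896 and 904 TPM in GLUT3KO with acetate and at 483, 523 and 458 TPM in WT. Its difference of 0.75 ± 0.24 (limma adjusted p = 0.0292) was lost in 7 alternatives, among them the omission of any WT library and of replicate 2 or 3 of GLUT3KO with acetate (0.0529 to 0.0994), quantile normalization (0.0534) and voom (0.139).

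**Figure D3:**
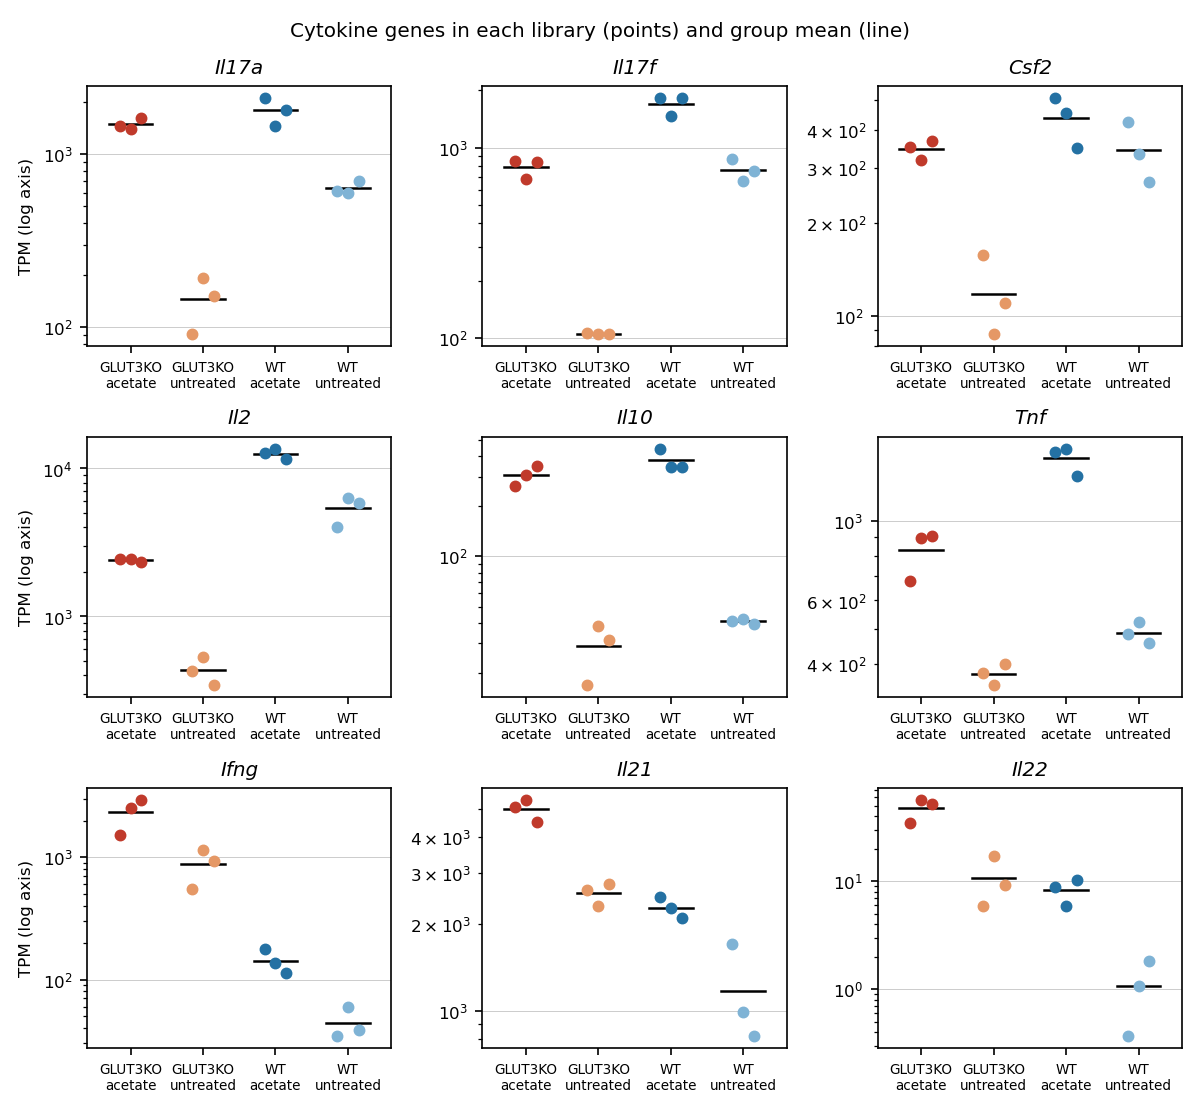
TPM on log axes for 9 cytokine genes in GLUT3KO with acetate, untreated GLUT3KO, WT with acetate and untreated WT, 1 point per library and a line at the mean of 3. Il17f and Csf2 of GLUT3KO with acetate overlap untreated WT, Il2 lies below it, and Il17a, Il10, Tnf, Ifng, Il21 and Il22 lie above it.

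Among 21 effector cytokine genes tested, 14 were higher in GLUT3KO with acetate than in WT and 1, Il2, was lower. Over all genes 20.3% were higher and 9.33% lower. The median was 1.40, against 0.06 over all genes. Acetate raised 15 of them within GLUT3KO and lowered 0, against 4.86% and 7.89% of all genes. In GLUT3KO with acetate 8 differed from untreated WT that had not differed from it in untreated GLUT3KO. Il4 and Il13, which encode the cytokines of Th2 cells, were in that group of 8. Il4 was at 32.3, 19.5 and 28.7 TPM in GLUT3KO with acetate and at 2.67, 5.27 and 3.54 TPM in WT, and Il13 at 40.8, 28.1 and 31.2 TPM in GLUT3KO with acetate and at 6.53, 6.93 and 6.6 TPM in WT. Their differences of 2.53 ± 0.32 and 2.14 ± 0.28 stood beside 0.48 ± 0.32 and 0.47 ± 0.28 against WT with acetate, which were not called (limma adjusted p = 0.296 and 0.236). Il5, another Th2 cytokine gene, and Il24 were moved further, by 4.31 ± 0.27 and 3.94 ± 0.26 from WT. Csf1, the gene of the macrophage growth factor M-CSF, had no called acetate change, at 31.8, 27.1 and 26.1 TPM in GLUT3KO with acetate, at 31.9, 20.3 and 25 TPM in untreated GLUT3KO and at 0.904, 0.472 and 0.611 TPM in WT.

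Of 22 genes of Th17 lineage and its receptors 14 were higher and 4 lower than in WT (median 0.82), against 20.3% and 9.33% of all genes. Relative to WT with acetate 7 were higher and 5 lower (median -0.03), against 20.9% and 9.5% of all genes, and acetate in WT raised 12 and lowered 0 (median 0.98), against 4.22% and 2.28%. Rora, a nuclear receptor gene, was higher (1.62 ± 0.21, limma adjusted p = 2.46e-05). Ccl20, the chemokine gene that draws CCR6-bearing cells, was at 3740.0, 4676 and 4392 TPM in GLUT3KO with acetate, at 849, 1186 and 756 TPM in untreated GLUT3KO, at 1239, 928 and 1145 TPM in WT with acetate and at 1163, 817 and 754 TPM in WT. The treated knockout stood above the other 3 groups in Ccl20, and its acetate change of 2.22 ± 0.38 (limma adjusted p = 0.00165) compares with 0.29 ± 0.38 in WT (limma adjusted p = 0.741), a difference that was not tested itself. Il23r, the receptor gene for the cytokine that maintains Th17 cells, was lower than in WT and not called for acetate, at 5.52, 4.13 and 4.89 TPM in GLUT3KO with acetate, at 4.16, 6.32 and 5.78 TPM in untreated GLUT3KO and at 11.6, 11.6 and 13.4 TPM in WT (-1.18 ± 0.15). In WT with acetate it was at 23.6, 24.4 and 26.3 TPM, above all others.

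Cd5l, known in mouse Th17 cells as a gene of their non-pathogenic state, was also lower. Its levels were 1.26, 3.50 and 3.69 TPM in GLUT3KO with acetate, 1.08, 1.05 and 0.988 TPM in untreated GLUT3KO, 55.9, 49 and 66.9 TPM in WT with acetate and 15.2, 22.4 and 24.8 TPM in WT. Both knockout groups lay below both WT groups. The difference from WT was -2.56 ± 0.27 (limma adjusted p = 3.72e-06), and the acetate change of 0.83 ± 0.27 was not called (limma adjusted p = 0.0542, and 0.0211 with a replicate block).

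Nearly all Th1 and cytotoxic genes stayed above WT. Of 15 tested 14 were higher and 0 lower (median 3.08), against 20.3% and 9.33% of all genes. Acetate raised 3 of the 14 further (Ifng, Tbx21 and Gzmc), and 11 had no called acetate change. Tbx21, which encodes the Th1 regulator T-bet, was at 32.8, 50.6 and 52.7 TPM in GLUT3KO with acetate, at 14.3, 23.3 and 24.9 TPM in untreated GLUT3KO and at 4.46, 3.84 and 4.60 TPM in WT. Its acetate call (1.09 ± 0.25) was lost without replicate 2 or 3 of GLUT3KO with acetate (0.0514 and 0.0533) or GLUT3KO replicate 1 (0.0556). Gzmb and Prf1, which encode the cytotoxic granule proteins granzyme B and perforin, differed from WT by 4.76 ± 0.45 and 4.02 ± 0.31. The acetate change of Prf1 (0.92 ± 0.31) was not called (limma adjusted p = 0.0675), but it was with a replicate block (0.0319) and in 7 other alternatives (0.0115 to 0.0436). Gzmb was at 284, 453 and 834 TPM in GLUT3KO with acetate and at 31.7, 13.9 and 10.0 TPM in WT. The granzyme genes are close relatives, so reads may be shared among them. Stat4, the 1 member not called, was at 22.2, 33.2 and 39.6 TPM in GLUT3KO with acetate and at 26.9, 19.4 and 21.9 TPM in WT, and these libraries overlapped.

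Markers of natural killer and γδ T cells moved with these genes. All 6 of the 8 listed markers that passed the filter were higher than in WT (median 2.66), against 20.3% of all genes. The summed level of the list was 109 to 202 TPM in GLUT3KO with acetate, 62.9 to 169 TPM in untreated GLUT3KO and 8.01 to 10.8 TPM in WT. Trdc, the constant region gene of the δ chain of the T cell receptor, was at 53.2, 68.3 and 98.9 TPM in GLUT3KO with acetate and at 3.39, 2.47 and 2.00 TPM in WT (4.34 ± 0.32). Ncr1, the defining receptor gene of natural killer cells, did not pass the filter, at 0.61, 0.435 and 0.445 TPM in GLUT3KO with acetate and at 0, 0.0609 and 0 TPM in WT. The part of such cells in the cytotoxic genes was not tested. B cell markers summed to 2.01 to 3.77 TPM in GLUT3KO with acetate and 2.61 to 3.49 TPM in WT, and myeloid markers, 1 of them at 0 everywhere, to 2.79 to 8.08 TPM in GLUT3KO with acetate and 1.68 to 3.47 TPM in WT. Neutrophil and erythroid markers summed to 0.720 to 9.41 TPM in GLUT3KO with acetate and 0.134 to 0.918 TPM in WT, and CD8 T cell markers to 13.6 to 19.9 TPM in GLUT3KO with acetate and 11.6 to 13.0 TPM in WT. Dendritic cell markers, some of which T cells also make, summed to 145 to 211 TPM in GLUT3KO with acetate and 68.6 to 73.6 TPM in WT.

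Chemokines and their receptors mostly lay above WT, with 6 of 10 chemokine genes higher and 3 lower (median 2.17) and 7 of 10 receptor genes higher and 1 lower (median 1.65). Over all genes 20.3% were higher and 9.33% lower. Xcl1, which attracts cross-presenting dendritic cells, was at 1746, 1872 and 2880.0 TPM in GLUT3KO with acetate, at 1468, 1522 and 2094 TPM in untreated GLUT3KO and at 79.9, 146 and 86.8 TPM in WT. Both knockout groups lay above WT and overlapped each other. Ccl9 was moved further, with 28.8, 69.5 and 85 TPM in GLUT3KO with acetate, 5.50, 14.3 and 10.9 TPM in untreated GLUT3KO and 0.789, 0.785 and 0.638 TPM in WT, and so was Ccl3, at 2.58 ± 0.18 from WT, which overlaps Ccl4 on the other strand. Cxcl3, an attractant of neutrophils, was left short, at 25, 14.9 and 21 TPM in GLUT3KO with acetate, at 10.7, 7.28 and 10.0 TPM in untreated GLUT3KO and at 107, 104 and 95.3 TPM in WT (-2.30 ± 0.29). Its acetate call (limma adjusted p = 0.033) was lost in 6 alternatives, 5 of them the omission of a single library of the knockout (0.0611 to 0.127). Cxcr3, the receptor gene typical of Th1 cells, was called only with acetate, at 29.6, 24.4 and 24.8 TPM in GLUT3KO with acetate, at 2.35, 5.94 and 3.75 TPM in untreated GLUT3KO, at 14.2, 15.3 and 15 TPM in WT with acetate and at 1.48, 2.94 and 4.95 TPM in WT. Ccr1 was moved further, to 3.29 ± 0.15 from WT.

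Genes that acetate returned were led, apart from Il17f, by Pls1, Ninl, Gucy1a1, Abcb4 and Myo1d, all of which GLUT3 loss had raised. Pls1, which encodes the actin-bundling protein plastin 1, was at 1.77, 3.16 and 3.69 TPM in GLUT3KO with acetate, at 25.9, 27.2 and 35.9 TPM in untreated GLUT3KO and at 3.24, 3.23 and 3.58 TPM in WT. With acetate its libraries overlapped WT, with a difference of -0.20 ± 0.20 and a 95% interval of -0.64 to 0.23. Ninl, Gucy1a1 and Abcb4 kept libraries that lay above all of WT, by 0.43 ± 0.18, 0.48 ± 0.21 and 0.39 ± 0.17. All 3 were called as still higher without the 5 libraries that earlier results had set apart. Gucy1a1 kept the position of a returned gene in 14 of 24 alternatives, Ninl and Pls1 in 23, Abcb4 in 22 and Myo1d in 21. Myo1d, a myosin gene, was at 6.61, 7.12 and 5.44 TPM in GLUT3KO with acetate and at 6.67, 3.96 and 4.19 TPM in WT, which overlapped, and without WT replicate 1 its difference was called (0.53, limma adjusted p = 0.0206). Compared with WT with acetate all 5 were higher by called differences of 0.89, 0.96, 0.92, 0.68 and 1.15. Of all 464 returned genes 158 were higher than in WT with acetate, 45 lower and 261 not called, against 20.9% higher and 9.5% lower of all genes. In WT with acetate 99 of the 464 also changed in the same direction, where 6.5% of all genes were called.

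Among the 44 genes changed back with too wide an interval, Stra6, the receptor gene for retinol-binding protein, stood at 11, 10.9 and 11 TPM in GLUT3KO with acetate, at 3.84, 3.74 and 3.04 TPM in untreated GLUT3KO and at 19.2, 27 and 24 TPM in WT. Its libraries lay between the other groups without overlap. Against WT it differed by -1.02 ± 0.39 (limma adjusted p = 0.0637), and 7 alternatives called it (up to 0.0477). Its acetate call was lost with voom (0.0613) and without any of 5 single knockout libraries (0.0735 to 0.104). Rasa1, which encodes an inhibitor of RAS, was at 66.6, 56.8 and 52 TPM in GLUT3KO with acetate, at 217, 115 and 159 TPM in untreated GLUT3KO and at 45.6, 24.8 and 26.7 TPM in WT (0.88 ± 0.32, limma adjusted p = 0.0532). Without WT replicate 1, the WT library nearest to it, the difference was 1.15 (limma adjusted p = 0.0207).

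The collagen IV genes Col4a2 and Col4a1, whose products build basement membranes, led the genes left short. Col4a2 was at 18.3, 22 and 26.4 TPM in GLUT3KO with acetate, at 79.7, 55.1 and 115 TPM in untreated GLUT3KO and at 0.775, 0.282 and 0.452 TPM in WT. Col4a1 was at 14.3, 17.6 and 21.9 TPM in GLUT3KO with acetate, at 55.9, 57.2 and 100.4 TPM in untreated GLUT3KO and at 0.93, 0.374 and 0.425 TPM in WT. In both, acetate lowered the level (-1.81 ± 0.22 and -1.89 ± 0.21) and left it far above WT (3.95 ± 0.22 and 3.58 ± 0.21, limma adjusted p = 8.8e-09 and 1.05e-08). The pair lie head to head and overlap at their starts on opposite strands. Ifi209, an interferon-inducible gene of the p200 family, was at 5.16, 5.94 and 6.33 TPM in GLUT3KO with acetate, at 40.9, 37.2 and 37.8 TPM in untreated GLUT3KO and at 1.22, 0.597 and 1.10 TPM in WT. Its relatives in the same cluster took other places: Ifi211 was not called for acetate, at 52.8, 82.4 and 65.4 TPM in GLUT3KO with acetate and at 0.779, 0.283 and 0.443 TPM in WT, and Ifi214 counted among those with too wide an interval (0.81 ± 0.32). The genes of this family are alike in sequence, so how reads were split among them is uncertain. Fam114a1 was short as well (3.43 ± 0.19), and its acetate call (limma adjusted p = 0.0333) was lost in 8 alternatives, among them without any 1 of the 3 treated libraries (0.0757 to 0.0970).

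The genes past WT were few, and the largest differences among those named lay below it, in Try5, Try4 and P2ry1. Try5 and Try4, which encode trypsinogens, were at 3.93, 4.59 and 4.01 TPM and 2.07, 1.76 and 1.80 TPM in GLUT3KO with acetate. In untreated GLUT3KO they were at 65, 115 and 74.5 TPM and 55.2, 45 and 56.8 TPM, and in WT at 24.3, 25.4 and 31.2 TPM and 21.1, 13 and 9.97 TPM. The order was the same in both, with untreated GLUT3KO highest, WT next and the treated knockout lowest, without overlap (-2.43 ± 0.24 and -2.39 ± 0.20 from WT). WT with acetate stood at 2.12, 3.88 and 3.07 TPM and 1.18, 1.47 and 1.37 TPM, and the differences from it (0.38 ± 0.24 and 0.30 ± 0.20) were not called (limma adjusted p = 0.248 and 0.285). The 2 genes are close copies, which may share reads. Of 4 trypsinogen genes tested, 1 was higher and 2 lower than in WT, against 20.3% and 9.33% of all genes. Acetate raised 1 of the 4 and lowered 3 within GLUT3KO, against 4.86% and 7.89% of all genes. Abca1, the cholesterol exporter regulated by LXR, was at 7.61, 8.22 and 9.42 TPM in GLUT3KO with acetate, at 32, 31.1 and 37.2 TPM in untreated GLUT3KO, at 7.46, 10.8 and 9.12 TPM in WT with acetate and at 19.2, 16.2 and 16.9 TPM in WT (-0.97 ± 0.15, limma adjusted p = 0.000134). Its difference between untreated GLUT3KO and WT was lost after correction for GC content and length (0.25, limma adjusted p = 0.229). P2ry1, a purine receptor gene, was at 1.44, 0.582 and 0.965 TPM in GLUT3KO with acetate and at 5.42, 6.17 and 5.96 TPM in WT (-1.80 ± 0.19), and its call in untreated GLUT3KO (0.65 ± 0.19) was lost in 7 alternatives (0.0579 to 0.356). Of all 31 genes past WT, 2 were higher and 3 lower than in WT with acetate and 26 not called, and 21 also changed in WT with acetate in the same direction (6.5% of all genes tested were called in that comparison).

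Of the named genes Gstt1 stood furthest above WT, and it was one of those that acetate moved further. Gstt1, which encodes a glutathione S-transferase, was at 109, 115 and 112 TPM in GLUT3KO with acetate, at 11.1, 18.2 and 12.3 TPM in untreated GLUT3KO, at 1.47, 1.31 and 1.82 TPM in WT with acetate and at 0.344, 0.417 and 0.849 TPM in WT. The difference from WT was 6.21 ± 0.31 (limma adjusted p = 2.73e-09). Rhoc, which encodes a small GTPase of the cytoskeleton, was at 284, 309 and 293 TPM in GLUT3KO with acetate, at 33.8, 47.5 and 47.1 TPM in untreated GLUT3KO, at 38.8, 33.5 and 30.7 TPM in WT with acetate and at 6.52, 6.26 and 9.27 TPM in WT (5.17 ± 0.23). In Rhoc untreated GLUT3KO and WT with acetate overlapped, and GLUT3KO with acetate lay above both. Il7r, the receptor gene for the survival cytokine interleukin-7, was at 324, 308 and 256 TPM in GLUT3KO with acetate, at 113, 117 and 133 TPM in untreated GLUT3KO and at 11.1, 8.32 and 8.92 TPM in WT (4.83 ± 0.14). Nrn1 stood at 2049, 1532 and 1353 TPM in GLUT3KO with acetate and at 64.9, 93.4 and 87.5 TPM in WT (4.31 ± 0.18), and Gja5, which encodes connexin 40, at 35.1, 39.6 and 30.9 TPM in GLUT3KO with acetate and at 0.786, 0.114 and 0.246 TPM in WT (4.73 ± 0.21). In these 5 genes no treated knockout library came near WT, and the call against WT held in all alternatives.

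Src, which encodes the kinase SRC, was at 84, 83.5 and 66.5 TPM in GLUT3KO with acetate, at 42.8, 41.5 and 46 TPM in untreated GLUT3KO and at 0.915, 0.987 and 1.17 TPM in WT (5.28 ± 0.22). Its acetate call (limma adjusted p = 0.0227) was lost without any of 4 single libraries (0.0574 to 0.0872) and with a pseudocount of 0.1 (0.106). Downward, Evl, which encodes a regulator of actin filaments, was the named gene furthest below WT. It was at 13.9, 16 and 22.1 TPM in GLUT3KO with acetate, at 72.8, 42 and 75.6 TPM in untreated GLUT3KO, at 62.5, 59.8 and 59.4 TPM in WT with acetate and at 169, 113 and 117 TPM in WT (-2.87 ± 0.28, limma adjusted p = 1.85e-06). The treated knockout lay below the other 3 groups, and several genes on the other strand overlap Evl. Pim2, which encodes a survival kinase induced by cytokines, was also among the largest falls. It was at 15.4, 15.4 and 14.1 TPM in GLUT3KO with acetate and at 103, 87.8 and 107 TPM in WT (-2.64 ± 0.32). Its acetate call (limma adjusted p = 0.0343) was lost without any 1 of the 6 knockout libraries (0.0636 to 0.103). Of all 307 genes moved further, 257 were higher and 28 lower than in WT with acetate, against 20.9% and 9.5% of all genes. The 307 were chosen by calls that use the same treated libraries, so this excess is partly set by the choice. In WT with acetate 130 of the 307 also changed in the same direction, as did 44 of the 225 short genes. In that comparison 6.5% of all genes tested were called.

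**Figure D4:**
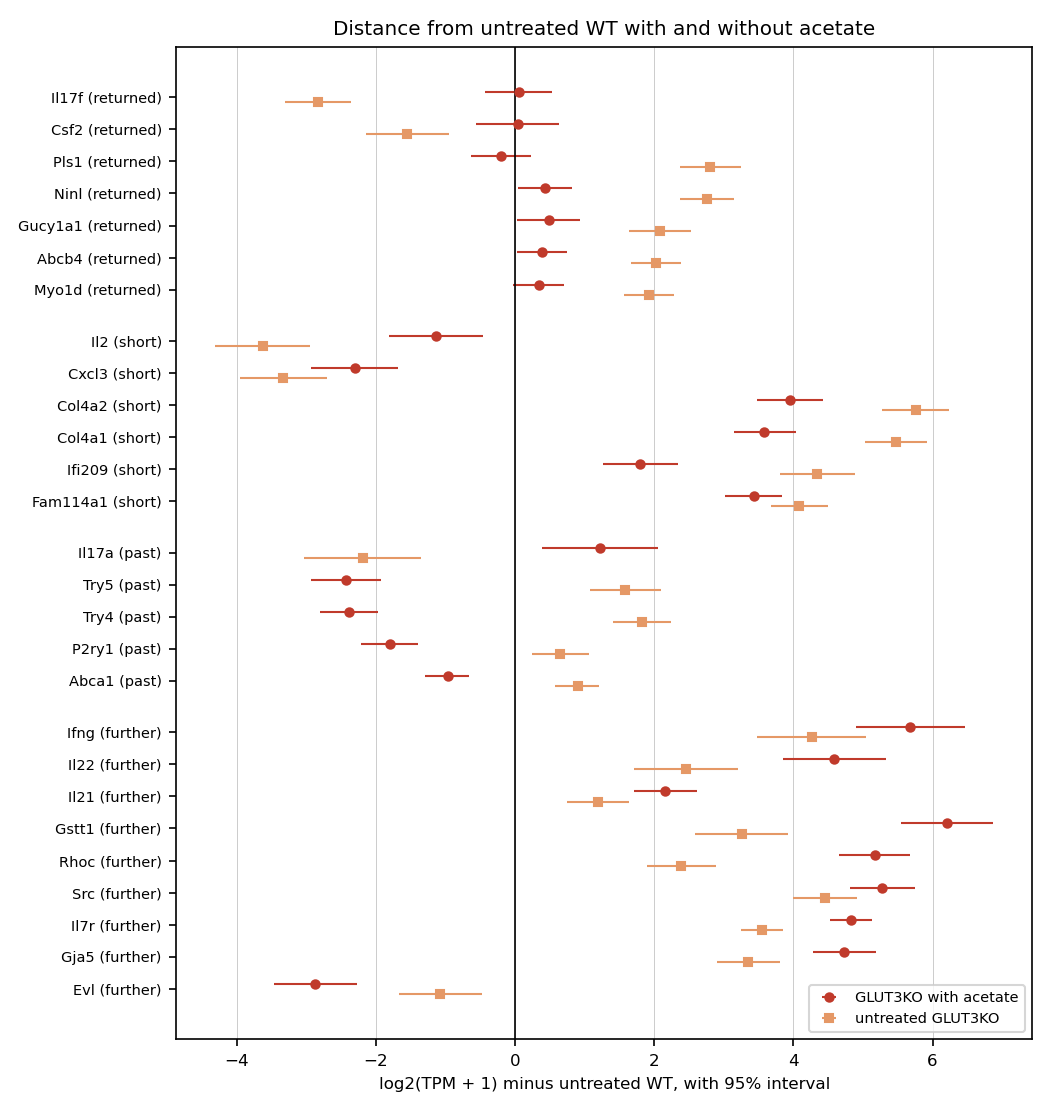
Difference from untreated WT in log2(TPM + 1), with its 95% interval, for named genes in 4 positions, with acetate (red circles) and without it (orange squares). Red circles of returned genes sit near 0, those of short genes between the squares and 0, those of past genes across 0 from the squares, and those of further genes beyond the squares.

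Most genes that GLUT3 loss had changed showed no called acetate change, and several of the largest differences from WT were among them. Spp1, which encodes the secreted protein osteopontin, was at 426, 431 and 436 TPM in GLUT3KO with acetate, at 383, 295 and 281 TPM in untreated GLUT3KO and at 6.56, 5.64 and 6.00 TPM in WT (5.94 ± 0.17, limma adjusted p = 1.54e-11). Its acetate change of 0.44 ± 0.17 had a limma adjusted p of 0.0999, and of 0.0428 with a replicate block. Trpm6, a magnesium channel gene, was at 58.9, 47.1 and 42.6 TPM in GLUT3KO with acetate, at 40.8, 25.3 and 29.5 TPM in untreated GLUT3KO and at 0.324, 0.188 and 0.304 TPM in WT, and its acetate change (0.64 ± 0.22) had a limma adjusted p of 0.0668, and of 0.0123 with the block. Map2k6, a kinase gene of the p38 pathway, did not move with acetate beyond its error (0.03 ± 0.18), at 103, 82.1 and 75.5 TPM in GLUT3KO with acetate, at 96.7, 72.1 and 87 TPM in untreated GLUT3KO and at 2.82, 2.14 and 2.21 TPM in WT. Mir675, which lies within the transcript of H19, was listed at 0 in all 6 WT libraries, at 13.8, 14.2 and 15.8 TPM in GLUT3KO with acetate and at 38, 12.8 and 20.5 TPM in untreated GLUT3KO. Trat1, which encodes an adaptor of the T cell receptor complex, was low in both knockout groups, at 0.757, 1.01 and 0.56 TPM in GLUT3KO with acetate and at 6.65, 11 and 9.02 TPM in WT (-2.46 ± 0.21).

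Some genes were called against untreated WT in GLUT3KO with acetate but not in untreated GLUT3KO. Of these, 480 had a called acetate change within GLUT3KO (242 higher than untreated WT and 238 lower) and 767 did not. Of the 480, 181 also changed in the same direction in WT with acetate, where 6.5% of all genes were called, and 332 did not differ from WT with acetate by a called amount. Pdlim4, which encodes an actin-binding protein, was at 17.5, 19.5 and 15 TPM in GLUT3KO with acetate, at 0.318, 1.14 and 0.803 TPM in untreated GLUT3KO, at 8.28, 8.57 and 6.77 TPM in WT with acetate and at 0.2, 0.942 and 1.65 TPM in WT (3.31 ± 0.28). Cox6a2, which encodes a heart and muscle subunit of cytochrome c oxidase, was lower than WT, at 0.879, 0.656 and 1.18 TPM in GLUT3KO with acetate, at 6.95, 6.91 and 8.29 TPM in untreated GLUT3KO, at 1.14, 1.53 and 0.726 TPM in WT with acetate and at 8.72, 7.03 and 9.39 TPM in WT (-2.30 ± 0.41). In both genes the 2 acetate groups lay apart from the 2 untreated ones. S100a6, a calcium-binding protein gene, was higher than WT without a called acetate change, at 148, 186 and 223 TPM in GLUT3KO with acetate and at 11.3, 48.6 and 65.8 TPM in WT, a call that was lost without WT replicate 1 (0.0695).

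Genes of acetyl-CoA supply and glucose use were looked at as the route that acetate and GLUT3 share. Acly, which encodes ATP citrate lyase, was at 1084, 830.4 and 644 TPM in GLUT3KO with acetate, at 725, 604 and 709 TPM in untreated GLUT3KO and at 400.3, 395 and 392 TPM in WT (1.07 ± 0.22, limma adjusted p = 0.00148). Its acetate change was not called (0.30 ± 0.22). Acss2, which encodes the cytosolic acetyl-CoA synthetase, was at 2.48, 2.94 and 3.40 TPM in GLUT3KO with acetate, at 3.76, 4.54 and 6.59 TPM in untreated GLUT3KO and at 3.18, 2.28 and 2.99 TPM in WT, and its difference from WT was 0.05 ± 0.19 with a 95% interval of -0.36 to 0.46. The acetate change of Acss2 (-0.58 ± 0.19) had a limma adjusted p of 0.062, and of 0.0450 with a replicate block. Acss1, the mitochondrial synthetase gene, was at 0.645, 0.932 and 1.26 TPM in GLUT3KO with acetate and at 0.556, 0.43 and 0.633 TPM in WT (0.33 ± 0.15, limma adjusted p = 0.109). In all, 2 of 11 acetyl-CoA genes were higher and 1 lower, near the 20.3% and 9.33% of all genes.

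Slc2a1, the gene of the glucose transporter GLUT1, stood at 175, 143 and 153 TPM in GLUT3KO with acetate, at 118, 117 and 107 TPM in untreated GLUT3KO, at 80.0, 79.5 and 83.1 TPM in WT with acetate and at 79.1, 77.3 and 84.1 TPM in WT. Both knockout groups lay above both WT groups. Relative to WT it differed by 0.96 ± 0.27 (limma adjusted p = 0.0143), and the call was lost with voom (0.0686) and without replicate 1 of GLUT3KO with acetate (0.0573). Of 18 glycolysis genes 5 were higher and 3 lower (median -0.03), against 20.3% and 9.33% of all genes. Tpi1, which encodes triosephosphate isomerase, was called only with acetate, at 752, 666 and 714 TPM in GLUT3KO with acetate, at 278, 305 and 334 TPM in untreated GLUT3KO and at 290.3, 289 and 313 TPM in WT (1.25 ± 0.25). Slc16a3, the exporter gene for lactate, was at 61.5, 44.8 and 59.5 TPM in GLUT3KO with acetate and at 16.1, 12.7 and 12 TPM in WT (1.94 ± 0.54, limma adjusted p = 0.0134).

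Of 10 fatty acid synthesis genes 1 was higher and 4 lower (median -0.64), against 20.3% and 9.33% of all genes. Under each of the 3 other scalings 6 were lower. Over all genes 1857 to 2854 were lower in those scalings, against 1327 on TPM. Among the lower ones was the desaturase gene Fads1 at 2.10, 2.87 and 3.56 TPM in GLUT3KO with acetate and at 10.2, 7.17 and 7.04 TPM in WT (-1.25 ± 0.22). Cholesterol synthesis genes counted 4 higher and 4 lower of 22 (median -0.09), and LXR targets 1 and 1 of 5, against 20.3% and 9.33% of all genes. Under the 3 other scalings the cholesterol list counted 3 higher and 7 lower, against the 1857 to 2854 lower genes in all. Without the 5 libraries apart more LXR targets were called higher, as were more of all genes, and their median was 0.40. Of 20 genes for histone acetyltransferases, deacetylases and readers of acetylation 3 were higher and 1 lower (median -0.16), against 20.3% and 9.33% of all genes. Under the other scalings 2 to 6 were lower, against the same 1857 to 2854 genes in all. Without the 5 libraries apart more members were called in both directions, as were more of all genes, and the median was 0.03. Hdac2, a histone deacetylase gene, was the lower one, at 94.3, 99.3 and 103 TPM in GLUT3KO with acetate and at 268, 202 and 206 TPM in WT (-1.17 ± 0.24, limma adjusted p = 0.00162). Kat2b, an acetyltransferase gene, was higher in both knockout groups, at 34.5, 40.5 and 38 TPM in GLUT3KO with acetate, at 58.1, 53.6 and 59.3 TPM in untreated GLUT3KO and at 11.3, 6.33 and 8.78 TPM in WT.

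Genes of ribosome biogenesis lay below WT or were not called. Of 25 tested, 0 were higher and 14 lower (median -0.68), against 20.3% and 9.33% of all genes. Their median was below 0 under all 3 other scalings (-0.90 to -0.77). Acetate raised 1 of the 25 within GLUT3KO and lowered 0, against 4.86% and 7.89% of all genes. Rrp9, which encodes a protein of small nucleolar particles, was at 99.9, 92.8 and 101 TPM in GLUT3KO with acetate, at 102, 61.7 and 92.3 TPM in untreated GLUT3KO and at 260.0, 214 and 201 TPM in WT (-1.18 ± 0.16). Npm1, which encodes nucleophosmin, was at 1301, 1130.0 and 1174 TPM in GLUT3KO with acetate and at 3833, 2414 and 2367 TPM in WT (-1.22 ± 0.30). The pentose phosphate pathway counted 0 higher and 4 lower of 9 (median -0.47), the respiratory chain 0 and 4 of 34 (median -0.17) and the TCA cycle 2 and 1 of 20 (median -0.09), against 20.3% and 9.33% of all genes. Without the 5 libraries apart more members of these 3 lists were called lower, as were more of all genes, and the medians were -0.51, -0.28 and -0.09. Under the other scalings 3 or 4 of the TCA cycle genes were lower. Over all genes 1857 to 2854 were lower in those scalings, against 1327 on TPM.

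Other lists above WT were those of matrix and epithelial genes (10 higher and 1 lower of 12, median 3.59), of TGF-β signalling (8 and 0 of 11, median 0.87) and of regulatory T cells (10 and 0 of 14, median 0.89). Over all genes 20.3% were higher and 9.33% lower. The matrix list was drawn up from leading genes of earlier results of these libraries, so its direction is not independent evidence. Members under 1 TPM in WT, as Trpm6 was, passed the filter through other libraries, where they were higher. In the TGF-β list Tgfbr1, a receptor gene, was at 214, 146 and 133 TPM in GLUT3KO with acetate and at 31.3, 32.3 and 27.1 TPM in WT (2.38 ± 0.15). Nt5e, which encodes the ectoenzyme CD73 that makes adenosine, led the regulatory T cell list at 457, 396 and 356 TPM in GLUT3KO with acetate, at 271, 348 and 315 TPM in untreated GLUT3KO and at 21.6, 15.2 and 22.4 TPM in WT (4.30 ± 0.21). Foxp3, the defining transcription factor gene of those cells, was low everywhere, at 0.716, 1.43 and 1.80 TPM in GLUT3KO with acetate and at 0.668, 0.694 and 0.869 TPM in WT (0.38 ± 0.21, limma adjusted p = 0.189). Havcr2 and Cd160, genes of inhibitory receptors, were higher by 3.26 ± 0.32 and 3.29 ± 0.26 among 9 of that kind, of which 4 were higher and 1 lower.

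Among stress and signalling lists, the type I interferon response counted 8 higher and 0 lower of 18 (median 0.72), the unfolded protein response 6 and 0 of 18 (median 0.47), the amino acid starvation response 6 and 0 of 16 (median 0.47), NRF2 targets 4 and 1 of 14 (median 0.53) and HIF targets outside glycolysis 5 and 1 of 12 (median 0.29), against 20.3% and 9.33% of all genes. Without the 5 libraries apart more unfolded protein response, starvation and NRF2 genes were called higher, as were more of all genes. Their medians were then 0.69, 0.48 and 0.35, against 0.085 over all genes. The replicate block gave 9 higher for the unfolded protein response, and 3181 in place of 2891 over all genes. JAK-STAT feedback genes counted 4 and 2 of 10 (median 0.60), with 2 higher under each of the 3 other scalings, and Stat5a, a transducer of interleukin-2 signals, was among the lower ones at 26.6, 30.9 and 32.5 TPM in GLUT3KO with acetate and at 71.5, 76 and 73 TPM in WT (-1.27 ± 0.12). AP-1 and other activation factors counted 7 and 2 of 17, with Fosl2 moved further at 108, 110.5 and 97.8 TPM in GLUT3KO with acetate and at 17.4, 14.8 and 15.6 TPM in WT (2.66 ± 0.24). Genes of the T cell receptor and costimulation counted 4 and 2 of 16, those of naive and memory T cells 2 and 3 of 10, and S phase genes 1 and 3 of 24. Without the 5 libraries apart more genes of the T cell receptor list were called, as were more of all genes, and its median was 0.21. Under the other scalings 5 to 8 S phase genes were lower. Over all genes 1857 to 2854 were lower in those scalings, against 1327 on TPM. In the list of G2 and M phase genes limma called 0 of 22 between GLUT3KO with acetate and untreated WT. Between untreated GLUT3KO and WT 6 were higher, where 24.9% of all genes were. The median was 0.20 in GLUT3KO with acetate and 0.95 in untreated GLUT3KO. All 6 calls, of Top2a, Nusap1, Bub1, Ccna2, Ccnb2 and Ttk, were lost under median-ratio scaling (0.0583 to 0.102), under quantile normalization (0.0529 to 0.115) and on leaving out any single GLUT3KO library or WT replicate 2 or 3 (0.0511 to 0.181). Limma called 0 acetate changes within GLUT3KO among these 22 genes, with 6 at an unadjusted p under 0.05, and between GLUT3KO with acetate and WT 0 of the 22 reached that unadjusted p. Voom also called 0 in both comparisons, and 1 between untreated GLUT3KO and WT. Of the 33 lists with at least 5 tested members, the medians of the glucose transport, naive and memory T cell and AP-1 lists, and that of the acetyl-CoA list, which was at 0, changed sign or fell to 0 or below under another scaling.

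**Figure D5:**
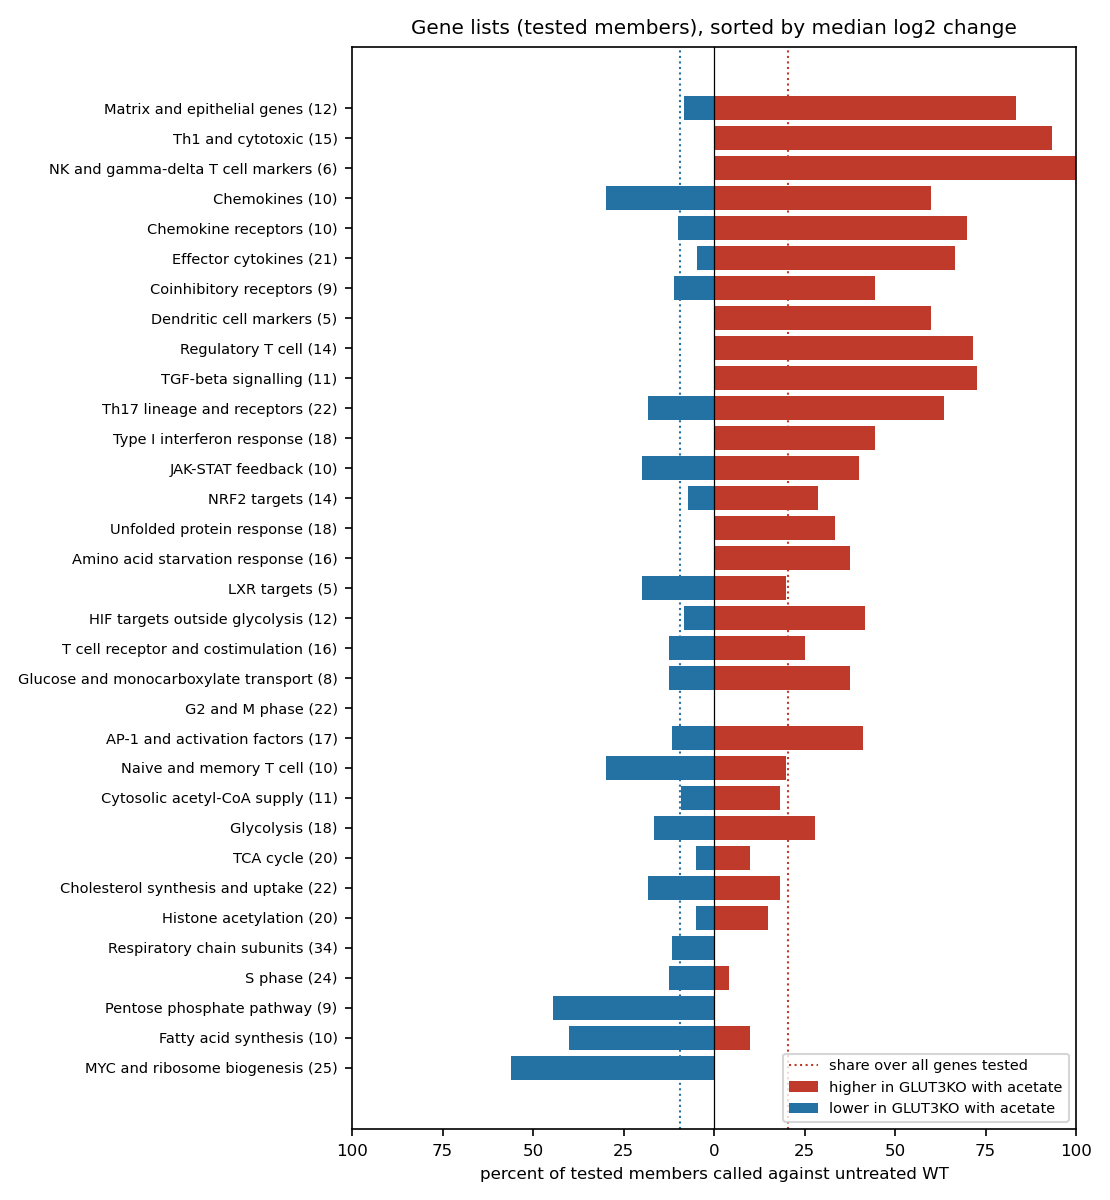
Percent of the tested members of each gene list called higher (red) or lower (blue) in GLUT3KO with acetate than in untreated WT, for lists with at least 5 tested members (number in brackets), in the order of their median change. Dotted lines mark the share over all genes tested, 20.3% higher and 9.33% lower. Matrix, Th1 and cytotoxic, and natural killer and γδ T cell genes exceed the 20.3% by far, and ribosome biogenesis genes exceed the 9.33% of lower genes, with 0 of 25 higher. The matrix list was drawn up from leading genes of earlier results of these libraries, so its excess is not independent evidence. Members under 1 TPM in WT passed the filter through other libraries, where they were higher.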

How the data were processed

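RNA of 18 Th17 cultures was sequenced in 6 groups of 3 libraries. Per the labels' protocols, stranded libraries from 500 ng of RNA with RIN above 7.8 were read as single 75 nt reads. The authors deposited 1 table of 45703 genes in TPM, a length-scaled level, other values being the exon length in bases. Per the submitters' processing notes, the tools include STAR 2.7.2b, featureCounts 1.6.4, bcl2fastq 2.20.0.422, DESeq2 and cutadapt, with GRCm38.p6. Which strand was counted is not stated there. TPM values were written with decimal commas, and the test was chosen for TPM. In each library 100% of values under 500 reads came back as whole reads (tolerance 0.01).

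Genes with at least 1 TPM in at least 3 libraries (14229) were fitted as log2(TPM + 1) with limma 3.58.1 in R 4.3.3, with 6 group means over all 18 libraries (12 residual degrees of freedom), trended robust variance and Benjamini-Hochberg adjustment within each comparison. The members, gene lists and tests were chosen with earlier results of these data known. The text names fixed genes, the largest differences, leading genes of each position and leading list members, the last 3 by size or adjusted p, plus list members chosen after their values were seen. Some genes that this rule names are not reported here. Promoters come from RefSeq (GRCm38.p6). Replicate numbers of GLUT3KO with acetate and untreated GLUT3KO deviated together (correlations of 0.194, 0.147 and 0.171), so the blocked acetate change is given where it alters a call. The fit was tested on simulated data.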

Additional observations from a re-analysis of the deposited data

How the results depend on the processing

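The comparison of GLUT3KO with acetate and untreated WT called 4218 genes, that of untreated GLUT3KO and WT 4753, the acetate change within GLUT3KO 1813, and GLUT3KO with acetate against WT with acetate 4329. In that order, a score on the within-group axis as covariate gave 7422, 8311, 6511 and 7663, a minimum log2 change of 1 gave 1791, 1948, 541 and 1703, and omission of the 5 libraries apart gave 8867, 7578, 3496 and 9350, the second and the third from 1 untreated GLUT3KO library (replicate 2), whose spread is taken from the other groups, and so are the positions without these 5. Leaving out single libraries gave 3309 to 3880, 3458 to 5204, 960 to 2342 and 3317 to 3561. The acetate change fell to 1130, 960 and 1006 genes without replicate 1, 2 or 3 of GLUT3KO with acetate, and to 1011 and 977 without replicate 1 or 3 of GLUT3KO. A fit of only the groups compared called 9393 genes in the last comparison. For genes returned, short, past and further (464, 225, 31 and 307), the covariate gave 1980, 1167, 353 and 890, the minimum change 81, 25, 3 and 69, and omission of the 5 libraries 762, 933, 138 and 533, while leaving out single libraries gave 219 to 667, 102 to 303, 12 to 37 and 189 to 282. Genes past WT numbered 47 after quantile normalization, 63 after correction for GC content and length and 52 in the fit of the groups compared. The cause of these shifts was not tested, except that a minimum change and fewer libraries alter the counts by construction. With the replicate block, 787 genes were returned and 340 short. The block changed the acetate call of Slc2a3, Spp1, Trpm6, Acss2, Cd5l and Prf1 among genes named, and 13 of 18 libraries correlated best with their own number. Replicate numbers of GLUT3KO with acetate and WT did not pair (0.0117, -0.0306 and -0.0306). Those of untreated GLUT3KO and WT correlated at 0.721, 0.622 and -0.354, and the block called 5613 genes between these groups in place of 4753. Voom on recovered reads called 4273 genes between GLUT3KO with acetate and WT. Of 3435 alternative values for 192 genes, 3198 kept direction and call, 181 lost the call, 56 gained it and 0 reversed. Depth of 18.7 to 30.1 M reads limits genes near 1 TPM, and 3 libraries a group limit small differences.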
